A study of Mus musculus with 6 samples.

Results

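The 5 transcripts Gm42418, AY036118, Mir6236, Mir6240 and n-R5-8s1 were examined among the 5880 non-coding transcripts counted in exosomal small RNA-seq libraries. They were picked by name from the annotation, after the counts were known, as transcripts suspected to be related to the ribosomal RNAs cut from the 45S precursor. Their annotation does not group them: Gm42418 and AY036118 are listed as lincRNAs, Mir6236 and Mir6240 as miRNAs, and n-R5-8s1 as an rRNA. P19 is a pluripotent mouse embryonal carcinoma line that turns into neurons after retinoic acid. Undifferentiated P19 cells (UD-P19, replicates 1, 2 and 3) had grown in α-MEM with serum and released their exosomes into serum-free α-MEM with N2. P19 neurons (P19N, replicates 4, 5 and 6) had received retinoic acid for 4 days and were then kept in neurobasal medium with B27 and N2. The labels list no drug exposure, whereas the methods of the study describe 5-fluorouridine with uridine for the neuronal cultures as a stop to proliferation. Cell state, medium and this nucleoside cannot be told apart in the comparison. The neuronal cultures were 8, 10 and 12 days old, so culture age and replicate cannot be told apart either. By the methods the nucleoside was given on days 3 and 8, on day 8 after medium collection, so exposure differed with culture age. The study calls the exosome preparations independent, and whether the ages came from shared cultures was not known here. Each replicate gave 1 library from a single exosome preparation of the same cell line.

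In the nucleolus, RNA polymerase I transcribes the 45S precursor, from which the 18S and 28S rRNAs and the short rRNA that pairs with 28S are released while the external and internal transcribed spacers are removed. 5S rRNA is transcribed separately by RNA polymerase III, and mitochondria make rRNAs of their own. Small nucleolar RNAs such as U3 and U8, and the RNA of RNase MRP, take part in cutting the precursor. Fragments of rRNA are an abundant component of small RNA libraries. Some transcripts annotated as lincRNAs or miRNAs overlap or resemble rRNA, and can collect such fragments when reads are matched to a non-coding RNA catalogue.

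Gm42418 (ENSMUST00000182010.1) lies on the plus strand at chr17:39846958-39848788 in GRCm38 and is 1831 bases long. RefSeq gives Gm42418 as a synonym of Rn18s-rs5, an 18S rRNA-related pseudogene, and places Rn18s-rs5 at chr17:39846354-39848202. No 18S sequence was compared, so which strand has the sense of 18S rRNA was not tested. The first 1244 bases of Gm42418 are the exact reverse complement of the start of the longer CT010467.1 transcript, which is annotated as an rRNA on the other strand. The remaining 587 bases extend past that transcript and have a GC content of 71.0%, against 55.1% in the first 1244. They lie opposite a shorter CT010467.1 transcript, annotated as a pseudogene, which shares 686 bases with Gm42418 and had 16 counts. The following window, chr17:39848142-39848261 on the plus strand, spans bases 1185 to 1304 and holds the place opposite the first base of the longer CT010467.1 transcript, with the stretch opposite that transcript in capitals. The whole window also lies opposite the shorter one.
Gm42418, bases 1185 to 1304: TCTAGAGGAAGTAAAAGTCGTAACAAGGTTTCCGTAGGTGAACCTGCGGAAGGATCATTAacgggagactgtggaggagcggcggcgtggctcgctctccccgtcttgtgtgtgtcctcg

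AY036118 (ENSMUST00000200021.1, chr17:39847113-39848035, minus strand) is 923 bases long and lies entirely opposite bases 156 to 1078 of Gm42418. RefSeq places a lncRNA of the same symbol at chr17:39848112-39898385, with no base in common with this GENCODE transcript, which is the one counted here. The first 60 bases of the GENCODE transcript are printed below with the plus-strand stretch of Gm42418 at the same place, chr17:39847976-39848035. Reads from the 2 strands of this stretch belong to transcripts with very different counts.
AY036118, first bases, minus strand: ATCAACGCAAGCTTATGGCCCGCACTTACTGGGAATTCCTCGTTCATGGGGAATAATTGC
Gm42418, same place, plus strand: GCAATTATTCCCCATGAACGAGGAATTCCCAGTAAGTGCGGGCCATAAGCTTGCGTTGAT

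Mir6236 (ENSMUST00000184437.1, chr9:110281287-110281409, plus strand, 123 bases) and Mir6240 (ENSMUST00000184281.1, chr5:114851948-114852064, plus strand, 117 bases) are the members annotated as miRNAs. RefSeq for GRCm38.p6 gives the mature sequences below, with the seed, bases 2 to 8, in capitals. The seeds differ, CCGUCGC in mmu-miR-6236 and CAAAGCA in mmu-miR-6240, so the pair does not form a seed family. The Mir6240 hairpin is shown in addition with the mature stretch in capitals, since its counts were the ones that did not follow the other members.
mmu-miR-6236: gCCGUCGCcggcagucagg
mmu-miR-6240: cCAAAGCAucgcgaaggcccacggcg
Mir6240 hairpin: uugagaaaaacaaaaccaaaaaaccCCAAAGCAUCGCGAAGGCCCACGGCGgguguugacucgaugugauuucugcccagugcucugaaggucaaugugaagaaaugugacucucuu

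n-R5-8s1 (ENSMUST00000083988.1, chr18:73533403-73533550, minus strand, 148 bases) is annotated as an rRNA, a copy of the short rRNA that pairs with 28S. The label of the group was checked by searching each member against 141767 GENCODE transcripts for stretches of at least 50 bases with at least 90% identity. Gm42418 and AY036118 matched each other and the rRNA CT010467.1. Mir6236, Mir6240 and n-R5-8s1 had 0 such matches. The closest match of n-R5-8s1 was another annotated rRNA, Gm24601, with 82.5% identity over 103 bases. Gm24601 had a log2 fold change of -0.17 (SE 0.520) and overlapping groups, at 31.8, 110 and 62.7 CPM in UD-P19 and 75.2, 48.8 and 59.8 in P19N. The matches of Gm42418 and AY036118 are to transcripts annotated at the same place in the genome, so they follow from the overlap. The relation to rRNA thus rested on the annotation of CT010467.1 for Gm42418 and AY036118, and on its own annotation for n-R5-8s1. It was not tested for Mir6236 and Mir6240, because a 28S sequence was not used here.

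Total counts per library were between 454499 and 887460. UD-P19 replicate 2 and P19N replicate 6 stood apart in that 1.88% and 1.56% of their counts were mitochondrial rRNA, against 0.183% to 0.383% in the other 4 libraries. Mitochondrial rRNA did not separate the groups. The 9 neuronal marker RNAs in the table, led by Meg3, summed to 3 to 78 counts in UD-P19 and 40 to 99 in P19N, with UD-P19 replicate 2 at the upper end of its group. Meg3 had 2, 65 and 5 counts in UD-P19 and 58, 42 and 27 in P19N, and Miat overlapped as well. Rmst did not overlap, at 0, 1 and 1 against 20, 11 and 4. Mir124-2hg had 0, 1 and 2 against 8, 10 and 2. The 5 markers of undifferentiated cells in the table summed to 0 to 13 and 0 to 3 counts. Neither summed list separated the groups, and the labelled state was marked by Rmst at low counts. Whether fewer vesicles carried a transcript or each vesicle carried less of it cannot be told apart in pooled exosomes.

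The members together took 61.4%, 50.9% and 67.2% of the counts in UD-P19 replicates 1, 2 and 3, and 18.0%, 17.5% and 19.3% in P19N replicates 4, 5 and 6. The means were 59.9% ± 8.26 (SD, n = 3) and 18.2% ± 0.947 (SD, n = 3), a difference of -41.6 percentage points for P19N minus UD-P19. The groups did not overlap, and the spread among the UD-P19 libraries was the wider. Without UD-P19 replicate 2 the difference was -46.1 points. The widest 95% Wilson interval of a member's share in a library extended 0.142 points to either side, and such intervals cover counting error only.

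Gm42418 alone held most of this. It received 273004, 345984 and 502684 counts in UD-P19 and 147733, 123907 and 106851 in P19N, all of them in the column of unique matches. Every UD-P19 library was above every P19N library, and P19N libraries were close to each other. In CPM, counts per 1000000 of the scaled library, its level was 635769 ± 212310 (SD, n = 3) in UD-P19 and 161919 ± 12530 (SD, n = 3) in P19N. The fitted log2 fold change of P19N over UD-P19 was -1.97 (SE 0.271), a level 3.93-fold higher in UD-P19. Scaled to the counts outside the members it was -2.87. Gm42418 made up 97.4% ± 0.890 (SD, n = 3) of the members' counts in UD-P19 and 93.3% ± 0.711 (SD, n = 3) in P19N. The plot of shares by library shows the order of the members and the distance between the groups.

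**Figure D1:**
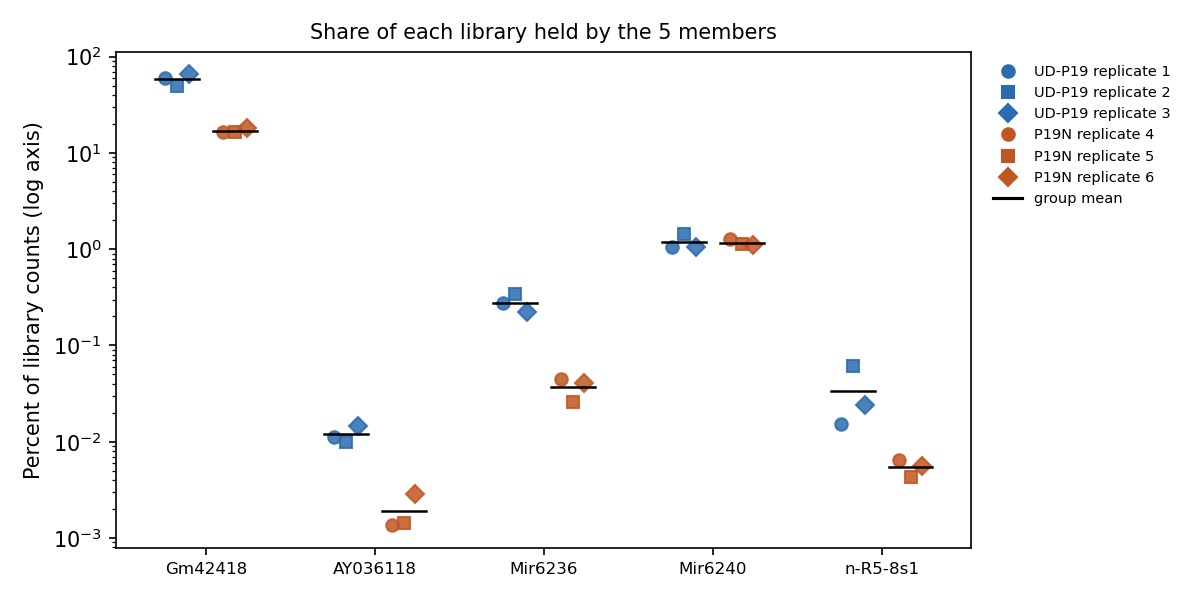
Percent of each library's counts (log axis) for the 5 members, with a point for each library and a black line at each group's mean (n = 3 each). Gm42418, AY036118, Mir6236 and n-R5-8s1 lie higher in all UD-P19 libraries than in any P19N library, whereas the points of Mir6240 overlap at 1.05% to 1.43%.

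The opposite strand of the locus had few counts beside Gm42418. AY036118 had 51, 70 and 112 counts in UD-P19 and 12, 11 and 17 in P19N. The P19N libraries were all low, and the groups did not overlap. Its log2 fold change was -2.90 (SE 0.535). None of its 273 counts was unique, since its whole sequence is also contained in CT010467.1 on the same strand, so how its counts divide between these annotations is uncertain.

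CT010467.1 (ENSMUST00000198477.1, chr17:39846353-39848201, minus strand), the annotated rRNA that overlaps both, had 156, 172 and 204 counts in UD-P19 and 90, 49 and 57 in P19N, with a log2 fold change of -1.88 (SE 0.444). CT010467.1 too was higher in every UD-P19 library. Of its 728 counts 435 were unique, at 89, 99 and 93 in UD-P19 and 75, 36 and 43 in P19N. The fold change of its unique counts is not given here. As AY036118 lies within CT010467.1, the counts of these transcripts are not separate measurements. AY036118 and CT010467.1 with its shorter pseudogene transcript amounted to 0.703 ± 0.0603 (SD, n = 3) minus-strand counts per 1000 Gm42418 counts in UD-P19 and 0.642 ± 0.130 (SD, n = 3) in P19N, and these ranges overlapped. All counts of Gm42418 were unique although 1244 of its bases pair with CT010467.1, so the counting kept the strands apart.

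Gm26917 (ENSMUST00000192833.1, chr17:39843013-39846341, plus strand) ends before Gm42418 on the same strand and was singled out after its values were seen. It had 1147, 1508 and 1770 counts in UD-P19 and 3136, 2321 and 2533 in P19N. Its counts were lower in every UD-P19 library than in any P19N library. The log2 fold change was 0.45 (SE 0.336), which did not pass the test, and it was -0.43 (SE 0.305) when scaled to the counts outside the members. The shorter Gm26917 transcript, with 0 unique counts of 1291, had a log2 fold change of 0.94 (SE 0.391). Per 1000 Gm42418 counts the longer transcript had 4.03 ± 0.445 (SD, n = 3) in UD-P19 and 21.2 ± 2.49 (SD, n = 3) in P19N with no overlap, a description without a test. The map of the locus gives the position of each transcript with its total counts.

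**Figure D2:**
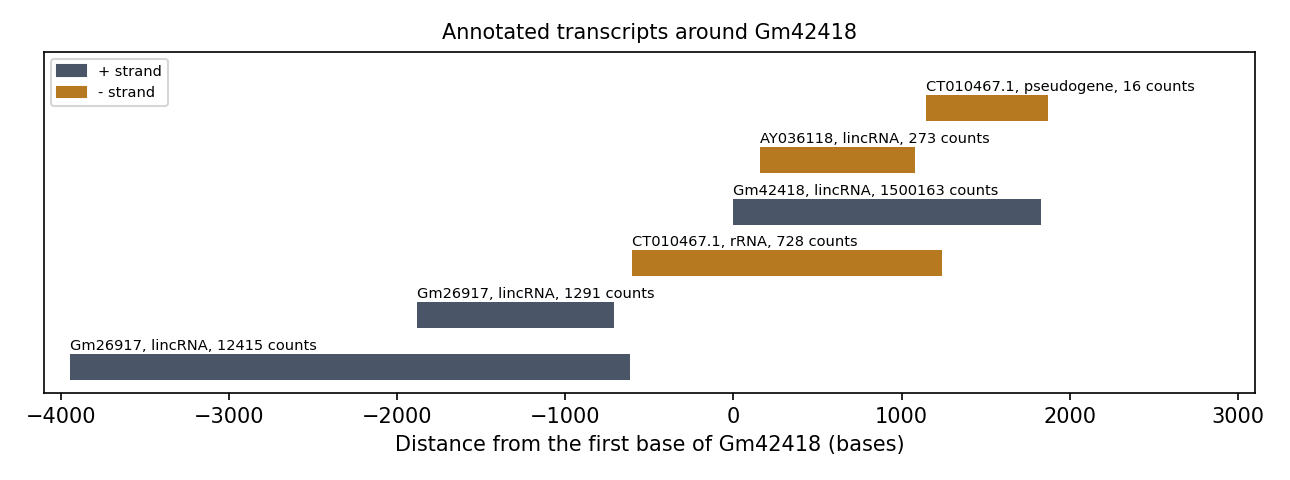
Map, to scale, of the annotated transcripts at the Gm42418 locus, with the distance in bases from the first base of Gm42418 on the x axis, strand by colour and the total counts over the 6 libraries beside each bar. Gm42418 on the plus strand has 1500163 counts, and AY036118 and CT010467.1 on the minus strand have 273 and 728.

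Mir6236 had 1243, 2389 and 1684 counts in UD-P19 and 401, 196 and 238 in P19N, every one of them unique. Its UD-P19 levels were tight on the CPM scale, at 3044, 2824 and 2780, and its P19N levels were 471, 259 and 331. The groups were well apart and did not overlap. The log2 fold change was -3.03 (SE 0.379), within the error of that of AY036118. Its counts cover the annotated transcript of 123 bases, so they cannot be read as counts of the mature miRNA.

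Mir6240 behaved differently. It had 4780, 10081 and 8120 counts in UD-P19 and 11310, 8677 and 6489 in P19N, which was 1.05%, 1.43% and 1.06% of the libraries in UD-P19 and 1.27%, 1.14% and 1.10% in P19N. The groups overlapped, and both the lowest and the highest share came from UD-P19. The log2 fold change was -0.13 (SE 0.296), smaller than its standard error. Its sign was not stable: it was 0.028 with the filterByExpr filter, 0.027 without UD-P19 replicate 2 and 0.020 without P19N replicate 6. Scaled to the counts outside the members, the value was -1.05, in a fit in which the median of all transcripts moved from 0.21 to -0.68.

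Per length, Gm42418 had 347225 ± 115953 (SD, n = 3) CPM per kb and Mir6240 105485 ± 7904 (SD, n = 3) in UD-P19. In P19N the levels were 88432 ± 6843 (SD, n = 3) for Gm42418 and 96204 ± 18264 (SD, n = 3) for Mir6240. The levels per length were thus apart in UD-P19 and within their spread of each other in P19N. Mir6236 followed with 23435 ± 1153 and 2875 ± 879 CPM per kb, n-R5-8s1 with 2219 ± 1160 and 352 ± 87.2, and AY036118 with 142 ± 55.6 and 18.9 ± 5.85 (SD, n = 3 in each group).

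n-R5-8s1 had 70, 433 and 183 counts in UD-P19 and 57, 33 and 33 in P19N, all unique. UD-P19 replicate 2, the library with the most mitochondrial rRNA, had the most by far, and the part of that difference between libraries in the result was not tested. The groups did not overlap on the CPM scale, at 328 ± 172 (SD, n = 3) and 52.1 ± 12.9 (SD, n = 3). The log2 fold change was -2.65 (SE 0.497) with all libraries and -1.99 without UD-P19 replicate 2.

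Since all members were counted in the same libraries, their ratios to Gm42418 do not depend on the scaling. Mir6240 had 17.5, 29.1 and 16.2 counts per 1000 Gm42418 counts in UD-P19 and 76.6, 70.0 and 60.7 in P19N. Its ratio was 3.30-fold higher in P19N and the groups did not overlap, while its own share of the libraries overlapped.

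Mir6236 had 4.55, 6.90 and 3.35 counts per 1000 Gm42418 counts in UD-P19 and 2.71, 1.58 and 2.23 in P19N. The ratio was 2.27-fold higher in UD-P19, without overlap. AY036118 had 0.187, 0.202 and 0.223 in UD-P19 and 0.0812, 0.0888 and 0.159 in P19N, again without overlap. n-R5-8s1 had 0.256, 1.25 and 0.364 in UD-P19 and 0.386, 0.266 and 0.309 in P19N. Its groups overlapped, and without UD-P19 replicate 2 the log2 of its P19N to UD-P19 ratio changed from -0.96 to 0.046. The ratio to Gm42418 thus did not separate the groups for n-R5-8s1, was lower in P19N for Mir6236, with a log2 of its P19N to UD-P19 ratio of -1.18, or -0.75 on exact counts, and was higher in P19N for Mir6240. That of AY036118 was lower but uncertain, since none of its counts was unique, the summed minus-strand ratios overlapped, and the log2 of its P19N to UD-P19 ratio went from -0.89 to -0.40 on exact counts.

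**Figure D3:**
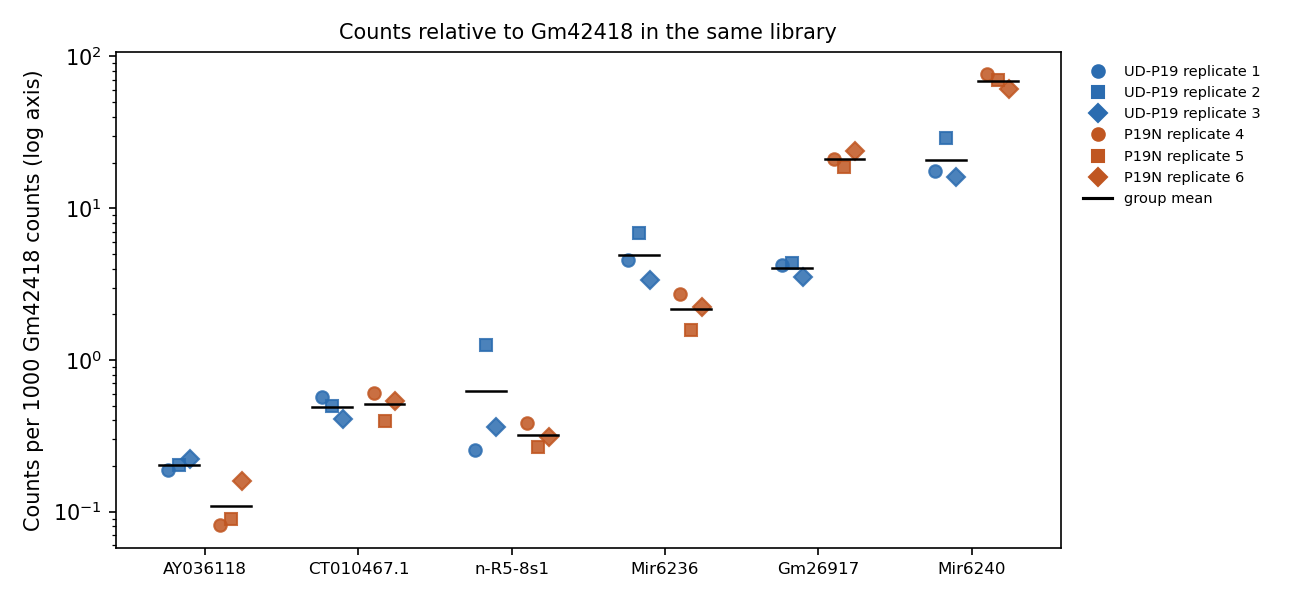
Counts of each transcript per 1000 Gm42418 counts in the same library (log axis), with a point for each library and a black line at each group's mean (n = 3 each). Mir6240 and Gm26917 lie higher in P19N, AY036118 and Mir6236 lie lower, and CT010467.1 and n-R5-8s1 overlap.

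The deposited table also counts exact matches, in a column that its sources do not define further. The header of that column also carries the word mature, and whether this limits the position of a match is not known. The column was read here as matches without a mismatch. The exact share of Gm42418 counts was 64.1%, 57.4% and 66.3% in UD-P19 and 36.1%, 28.2% and 44.3% in P19N. The means were 62.6% ± 4.65 (SD, n = 3) and 36.2% ± 8.05 (SD, n = 3), all UD-P19 libraries were higher, and a library's 95% Wilson interval reached at most 0.298 points to either side. The counts outside the members, summed over transcripts, went the other way, from 43.6% ± 9.81 (SD, n = 3) in UD-P19 to 67.7% ± 2.34 (SD, n = 3) in P19N, also without overlap. This sum is weighted by abundant transcripts. Of 391 other transcripts with at least 10 counts in every library, 2.56% had a lower exact share in P19N with no overlap between the groups and 30.7% a higher one, and the median change per transcript was 3.83 percentage points higher in P19N.

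The exact counts of Gm42418 were 404576 ± 159184 (SD, n = 3) CPM in UD-P19 and 58248 ± 10615 (SD, n = 3) in P19N, a 6.95-fold difference. Its other counts were 231193 ± 53128 (SD, n = 3) and 103671 ± 18362 (SD, n = 3), a 2.23-fold difference. Both kinds were lower in every P19N library, and the exact ones by more. The number of mismatches or the read ends behind the counts that were not exact were not examined here.

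Mir6236 had an exact share of 30.2%, 29.7% and 31.0% in UD-P19 and 26.4%, 25.5% and 18.5% in P19N. The groups did not overlap, but the counting intervals of P19N libraries were wide, the widest from 19.9% to 32.0% in P19N replicate 5. AY036118 had 65.2% ± 9.64 (SD, n = 3) and 54.4% ± 11.7 (SD, n = 3) exact counts, and its groups overlapped.

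The remaining members had almost no exact counts. Of 49457 Mir6240 counts 7 were exact, or 0.0142% (95% Wilson interval 0.00686% to 0.0292%), and all 7 were in UD-P19 replicate 2. A count of 0 in the other 5 libraries, read as up to 3 counts rather than by the Wilson interval, allows a share of up to 0.0265% to 0.0628%. None of the 809 counts of n-R5-8s1 was exact, which by the same reading allows up to 0.371% over all libraries and 0.693% to 9.09% in a single library. If exact means a match without a mismatch, almost all reads counted at these 2 transcripts differed from the annotated sequence. Most of those counted at Gm42418 in UD-P19 then did not. Whether the exact column also covers read ends is not known and was not tested.

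**Figure D4:**
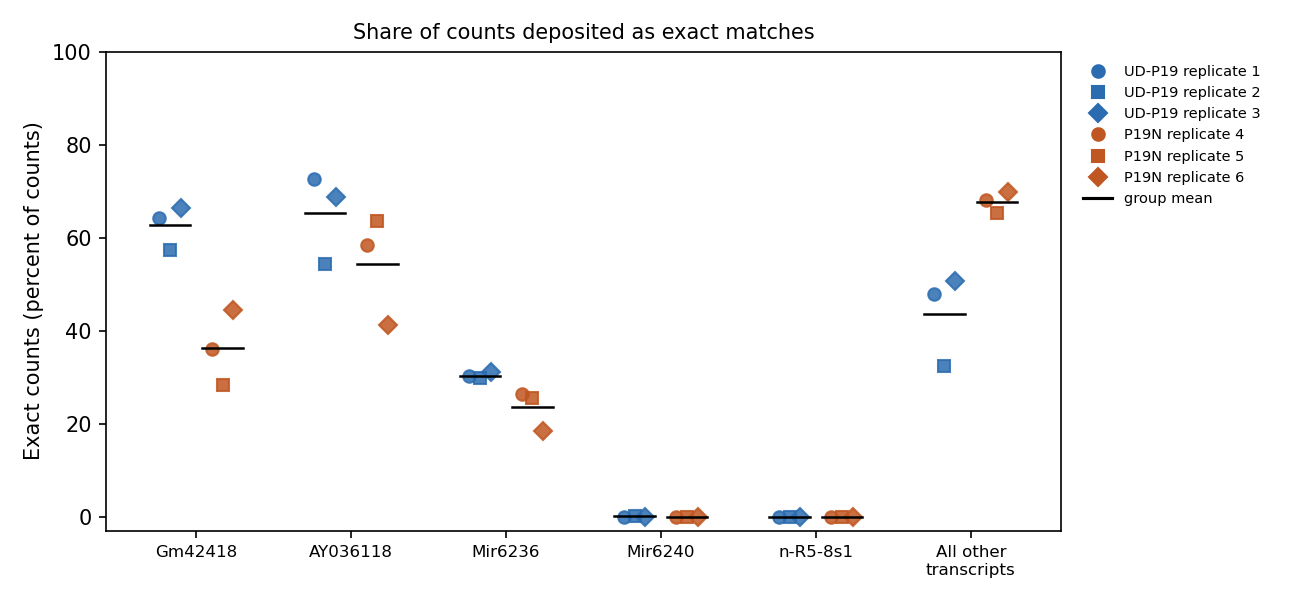
Exact counts as a percent of a transcript's counts, for each member and for all other transcripts summed, with a point for each library and a black line at each group's mean (n = 3 each). Gm42418 has means of 62.6% in UD-P19 and 36.2% in P19N, all other transcripts have 43.6% and 67.7%, and Mir6240 and n-R5-8s1 lie at or next to 0.

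In the fit over all 1286 transcripts with at least 15 counts, 4 of the 5 members were called lower in P19N at an adjusted p of at most 0.05, all but Mir6240. Of all tested transcripts 9.02% were called lower and 24.0% in either direction. Scaled instead to the counts outside the members, all 5 were called lower, as were 26.8% of all tested transcripts. On the CPM scale the same 4 members did not overlap between the groups, as was the case for 42.0% of all tested transcripts, and in the lower direction for 16.8%. The members were picked with this contrast known, so nothing is read from these counts. The median log2 fold change was -2.65 over the members and 0.21 over all tested transcripts. Relative to the median of all transcripts, values ranged over the settings from -3.15 to -1.74 for Gm42418, -3.79 to -2.89 for Mir6236, -3.58 to -2.75 for AY036118, -3.20 to -2.58 for n-R5-8s1 and -0.57 to 0.014 for Mir6240.

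**Figure D5:**
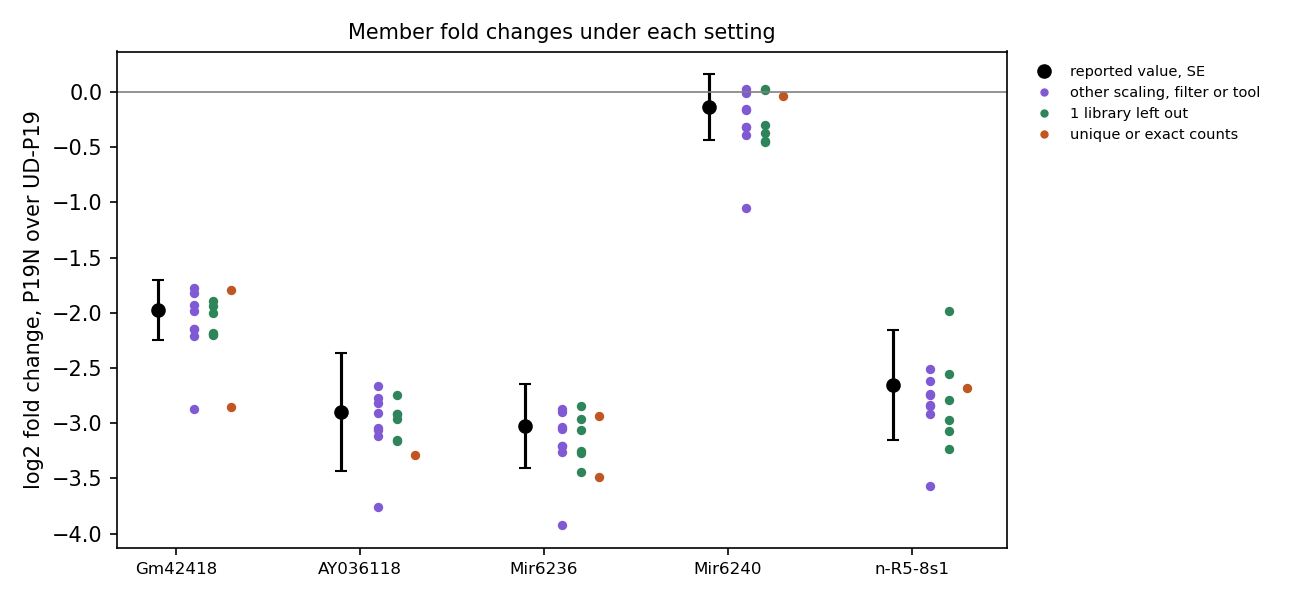
The log2 fold change of P19N over UD-P19 for each member as reported (black, with its standard error) and under other scalings, filters or tools, with 1 library left out, and from unique or exact counts. Gm42418, AY036118, Mir6236 and n-R5-8s1 stay below 0 throughout, and Mir6240 lies on both sides of 0.

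Few other RNAs of ribosome making passed the test. The table held 22 transcripts of 16 listed RNAs that act on the 45S precursor, and these were tested. By edgeR's quasi-likelihood test with Benjamini-Hochberg adjustment, 2 of the 22 rose in P19N and 0 fell. Over all 1286 tested transcripts 193 were called higher and 116 lower, a balance that depended on the scaling: it was 178 and 189 with DESeq2 size factors, and 105 and 345 when scaled to the counts outside the members. The median log2 fold change was 0.24 over the list. At an unadjusted p under 0.05 the same test had 4 higher and 0 lower, against 38.4% of all tested transcripts in either direction. The calls were 3 higher and 0 lower by edgeR's exact test, against 26.7%, and 2 higher and 0 lower by DESeq2, against 29.4%.

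Rmrp is the gene of the RNA of RNase MRP, which cuts the precursor in its first internal spacer. Its transcript annotated as a lincRNA (ENSMUST00000226420.1) rose from 5330 ± 1590 CPM to 17874 ± 1199 (SD, n = 3 each). Its log2 fold change was 1.75 (SE 0.319, edgeR adjusted p = 0.000991), and all P19N libraries were higher. The Rmrp transcript annotated as a ribozyme (ENSMUST00000157463.1), with 0 unique counts, did not pass the test, with a log2 fold change of 1.19 (SE 0.435, edgeR adjusted p = 0.0585). Snord22 (U22), a snoRNA needed for 18S maturation, rose from 51.5 ± 0.428 CPM to 125 ± 4.83 (SD, n = 3 each), with a log2 fold change of 1.28 (SE 0.447, edgeR adjusted p = 0.0482). That call is fragile: over the settings its adjusted p lay between 0.00817 and 0.217, and none of its 387 counts was unique.

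The U3 snoRNAs, which guide the first cuts of the precursor, held 10 of the 22 transcripts, and none was called. Their log2 fold changes lay between -0.43 for Rnu3a and 0.37 for Rnu3b2. None of the 13479 U3 counts was unique, as the copies are near-identical, so single copies cannot be told apart. Snord118 (U8), needed for the maturation of 28S and of the short rRNA paired with it, had 3295 ± 951 CPM in UD-P19 and 2563 ± 528 in P19N (SD, n = 3 each), with a log2 fold change of -0.36 (SE 0.348).

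The rRNAs that do not come from the 45S precursor were read beside the members. Of 103 annotated 5S rRNAs 60 were tested, and 7 fell and 0 rose in P19N by edgeR's quasi-likelihood test, or 11.7% lower against 9.02% of all tested transcripts. The list took the names that begin with n-R5s, and Rn5s, which stands outside it, had a log2 fold change of -0.81 (SE 0.343, edgeR adjusted p = 0.0952). Their median log2 fold change was -0.82, and 50 of the 60 were lower and 0 higher at an unadjusted p under 0.05, against 17.1% lower of all tested transcripts. The count of calls depended on the setting. By edgeR's exact test 8 fell, or 13.3% against 10.3% of all tested transcripts, by DESeq2 53 fell, or 88.3% against 15.8%, and without UD-P19 replicate 1 48 fell, or 81.4% against 13.8%. Only 1.53% of the 530338 counts at 5S rRNAs were unique, so the copies share reads and do not count as separate measurements. n-R5s195, the copy with the most unique counts (2564 of 2586), had 814 ± 120 CPM in UD-P19 and 438 ± 163 in P19N (SD, n = 3 each). Its log2 fold change was -0.89 (SE 0.402, edgeR adjusted p = 0.112), which did not pass the test. n-R5s71, the next by unique counts (1921 of 1948), fell, with a log2 fold change of -1.92 (SE 0.561, edgeR adjusted p = 0.0197). It had 309, 1395 and 352 CPM in UD-P19 and 223, 215 and 106 in P19N. UD-P19 replicate 2 was far above the other libraries, so the size of this value depends on it. Among further copies with unique counts, n-R5s5 (1207 of 1225) and n-R5s109 (1104 of 1620) did not pass the test. n-R5s28 (228 of 292) fell, with a log2 fold change of -2.74 (SE 0.486, edgeR adjusted p = 0.000757). It had 154, 113 and 142 CPM in UD-P19 and 18.8, 19.8 and 22.3 in P19N. The mitochondrial rRNAs did not pass the test, with log2 fold changes of -0.60 (SE 0.629) for mt-Rnr1 and -0.39 (SE 0.593) for mt-Rnr2.

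The transcripts most like Gm42418 were ranked among 394 with a mean of at least 50 counts, by the root mean square difference of centred log2 CPM over the 6 libraries. The 5 closest were CT010467.1 (0.232), a Gas5 transcript (0.250), Snord72 (0.273), Gm22455 (0.284) and Mir5117 (0.300). Gas5 is a host gene of snoRNAs, and Snord72, Gm22455 and the Mir5117 transcript are annotated as snoRNAs. Their fold changes ranged from -1.70 for Snord72 to -2.29 for Gm22455. The members themselves were farther from Gm42418, at 0.473 for AY036118, 0.685 for Mir6236, 0.759 for n-R5-8s1 and 0.928 for Mir6240. The ranking describes 6 libraries that share the difference between the groups, and nothing is read from it about function.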

How the data were processed

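Small RNA libraries from 3 UD-P19 and 3 P19N exosome preparations were sequenced. The authors merged read pairs, matched them in CLC Genomics Workbench to the mouse non-coding RNAs of GRCm38, and deposited raw counts per transcript. The deposited columns named unique and exact also carry the word mature in their headers. They were read as counts of reads with a single matching transcript and of reads that match exactly. The first reading fits AY036118, which lies within another transcript and had 0 unique counts, and the second was assumed. A further 48 per-library columns were not used (12 repeat the counts and 36 hold only 0). The deposited fold changes and p-values hold the authors' own comparison and were not used.

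Names came from GENCODE mouse release 21 through the transcript identifiers, which 5777 of 5880 shared. Those with a total of at least 15 counts were fitted with the quasi-likelihood method of edgeR 4.0.16 (R 4.3.3) with TMM scaling, no covariate and Benjamini-Hochberg adjustment over all 1286 tested, called at 0.05. CPM relate counts to 1000000 counts of a library after TMM scaling. The fit was tested on simulated data with 200 transcripts changed by a log2 of 2. It recovered 156 of them, or 78%, with 7 false calls, so a change of that size can be missed. Depth was between 454499 and 887460 counts per library. Sequences were compared with BLAST 2.17.0, and alternatives included DESeq2 1.42.0, other scalings and filters, unique and exact counts, and each library left out. Python 3.11.15, pandas 2.3.3 and scipy 1.17.1 were used for summaries. Libraries of a group differed by more than sampling noise (chi-square per degree of freedom from 9.62 to 109).

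The members and lists were chosen with earlier results of these data known. No p-value of a member is therefore printed, and their calls are given only as a description. Besides them, the named transcripts were those overlapping or matching a member, the list of ribosome-making RNAs, and the 5 with a mean of at least 50 counts nearest to Gm42418 in log2 CPM (prior count 2). Snora63 of that list was not analysed here. The sequence of n-R5-8s1 is not printed.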

Additional observations from a re-analysis of the deposited data

How the results depend on the processing

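Of 129 recomputed values for the members, 125 kept their direction and 112 moved by less than 1 SD between replicates. Scaled to the total counts outside the members, the log2 fold change was -2.87 for Gm42418, -3.76 for AY036118, -3.93 for Mir6236, -1.05 for Mir6240 and -3.57 for n-R5-8s1, while the median of all transcripts moved from 0.21 to -0.68, and Mir6240 was then called lower as well. TMM factors computed without the members gave -0.39 for Mir6240, and the median moved to -0.03. This scaling changed the called transcripts from 193 higher and 116 lower to 174 higher and 198 lower. Exact counts gave -2.85 for Gm42418, -3.49 for Mir6236 and, for the log2 ratio of AY036118 to Gm42418, -0.40. The difference of the members' share was -58.0 points in exact counts and -30.8 in unique counts, in which AY036118 has none. Mir6240 and n-R5-8s1 could not be fitted on exact counts, and AY036118 not on unique counts.

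With each library left out in turn, the log2 fold change lay between -2.20 and -1.90 for Gm42418, -3.16 and -2.74 for AY036118, -3.44 (without P19N replicate 4) and -2.84 for Mir6236, -0.45 and 0.027 for Mir6240, and -3.23 and -1.99 for n-R5-8s1. The log2 ratio of n-R5-8s1 to Gm42418 lay between -1.33 and 0.046, and the reversal came from leaving out UD-P19 replicate 2. The exact share of Gm42418 differed by -30.4 to -22.4 points and that of Mir6236 by -8.32 to -4.35. The ribosome-making list had 1 to 4 transcripts called higher and 0 to 1 called lower with a library left out. The 4 came without UD-P19 replicate 2, where 382 of all 1145 tested transcripts were called higher. With any other library left out it was 1, where 105 to 197 of all tested transcripts were called higher. The list also had 1 called higher with DESeq2 size factors, with no filter and on unique counts. Of all tested transcripts, 178 of 1286, 163 of 4623 and 73 of 510 were called higher in these settings. The Rmrp transcript annotated as a lincRNA was called in each of them and with each library left out. Snora62 was the only lower call, without UD-P19 replicate 2. The 5S calls, added after seeing the data, were 47 with DESeq2 size factors, where 189 of all 1286 tested transcripts were called lower. With DESeq2 they were 53, against 203 of 1286, and scaled to the counts outside the members 58, against 345 of 1286. On unique counts they were 2, against 54 of only 510 tested. With a library left out they lay between 5 and 48. The 5 came without P19N replicate 6, against 107 of 1194, and the 48 without UD-P19 replicate 1, against 174 of 1257. Where values moved, the cause was not tested. No paired analysis was possible because the groups share no replicate number. Counts under 20 per P19N library limit AY036118. The widest 95% Wilson interval of its exact share was 35.4% to 84.8%, in P19N replicate 5.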
